A study of Mus musculus with 34 samples.

Results

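The 9 genes Cfd, Adipoq, Lep, Retn, Plin1, Cidec, Cyp2e1, Sncg and Agt, which white adipocytes are known to express, were followed in the stromal vascular fraction (SVF) of visceral fat, of 32098 genes listed in all. The SVF is what pellets after collagenase-digested fat is spun and the floating adipocytes are taken off, so adipocyte genes enter it through adipocytes or fragments that stay behind and through other cells that use the gene. The 9 genes were chosen by their values in these libraries, so their levels and diet differences are given as a description with no test. The question put to them was which of them followed the other adipocyte RNA of the same library and which were lower on HFD by more than it.

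All mice were C57BL/6J males from 1 supplier that entered the diets at 6 weeks of age. They ate either HFD, a high fat diet with 60% of energy from fat, or CHOW, a control diet of either of a pair of formulas whose use per mouse the labels do not give. There were 4 CHOW and 6 HFD libraries after 8 weeks (mice aged 14 weeks), 5 CHOW and 6 HFD libraries after 20 weeks (26 weeks of age) and 7 CHOW and 6 HFD libraries after 34 weeks (40 weeks of age). All mice were fasted for 6 hours, and every pellet passed through an erythrocyte lysing buffer. The labels do not say whether a library is 1 mouse or a pool, so errors measure only the spread between these libraries. Values are TPM, a length-corrected share of each library that keeps no read depth, so the depth of each library is unknown. The tables for 8 and 20 weeks and for 34 weeks were made apart, and levels set across them below carry that limit.

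White adipocytes store triglyceride in a single large droplet and secrete hormones and complement proteins, the adipokines. Adiponectin (Adipoq), leptin (Lep), resistin (Retn) and adipsin (Cfd, complement factor D) are the best known of these. Adiponectin sensitises tissues to insulin, leptin reports fat stores to the brain, resistin is an adipocyte hormone in mice that opposes insulin, and adipsin is the protease that cleaves factor B in the alternative complement pathway. Plin1 (perilipin 1) and Cidec coat the lipid droplet. Cyp2e1 is an ethanol- and fatty acid-oxidising cytochrome P450, Sncg is gamma-synuclein, and Agt is angiotensinogen, the precursor of angiotensin.

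Each gene is protein coding in gencode M21 (GRCm38), listed here by the position of the whole gene. Cfd (ENSMUSG00000061780.5) lies on chr10:79890853-79892655 on the plus strand, Adipoq (ENSMUSG00000022878.5) on chr16:23146536-23158028 plus, Lep (ENSMUSG00000059201.12) on chr6:29060220-29073877 plus and Retn (ENSMUSG00000012705.16) on chr8:3655770-3660110 plus. Plin1 (ENSMUSG00000030546.14) lies on chr7:79720218-79732903 on the minus strand and Cidec (ENSMUSG00000030278.11) on chr6:113424634-113435760 minus. Cyp2e1 (ENSMUSG00000025479.9) lies on chr7:140763739-140774987 plus, Sncg (ENSMUSG00000023064.4) on chr14:34370274-34374789 minus and Agt (ENSMUSG00000031980.9) on chr8:124556534-124569706 minus.

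The 120 bases before the RefSeq start (GRCm38.p6) are shown for the gene that was lower on HFD by the most (Cfd), the gene used as the adipocyte yardstick (Adipoq), the gene that was higher on HFD at 8 and 20 weeks (Lep) and the gene that moved apart from the rest over time (Agt). They span chr10:79890733-79890852, chr16:23146416-23146535, chr6:29060101-29060220 and chr8:124569707-124569826, the last on the minus strand. Capitals mark matches to the motifs searched.
Cfd: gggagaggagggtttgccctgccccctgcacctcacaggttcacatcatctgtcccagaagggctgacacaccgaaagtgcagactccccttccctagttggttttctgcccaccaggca
Adipoq: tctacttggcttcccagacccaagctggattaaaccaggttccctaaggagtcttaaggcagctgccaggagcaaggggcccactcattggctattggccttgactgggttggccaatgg
Lep: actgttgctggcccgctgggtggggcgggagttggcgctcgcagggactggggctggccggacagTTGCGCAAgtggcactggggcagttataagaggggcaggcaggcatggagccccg
Agt: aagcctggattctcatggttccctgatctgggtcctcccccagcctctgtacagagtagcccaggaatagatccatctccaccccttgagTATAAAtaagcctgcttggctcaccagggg

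The search covered 250 bases before each start on both strands. It looked for the C/EBP core TTGCNNAA, present in 9.56% of 32851 windows of that length, the TATA box TATAAA, present in 12.4%, and the nuclear receptor element AGGTCA, present in 14.0%. The C/EBP core was matched in Lep (bases 55 to 48 before the start), in Plin1 (bases 187 to 180 and bases 58 to 51) and in window 2 of Cidec (bases 198 to 191). TATAAA was matched in Cyp2e1 (bases 31 to 26) and in Agt (bases 30 to 25). Cfd and Cyp2e1, whose levels ran together most closely, shared no match. Cfd, Adipoq, Retn and Sncg held none of these letters, which says nothing of what binds there.

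Several libraries stood apart, and these bear on the values that follow. The 3 CHOW 34 week libraries 5, 6 and 7 held far more adipocyte RNA than any other, with Adipoq at 1027, 5439 and 1486 TPM against 22.2 to 273 TPM in the others. The 9 genes made up 1.25%, 5.76% and 1.73% of all TPM there and 0.0194% to 0.199% elsewhere. HFD 8 week library 3 also held seminal vesicle RNA, and several HFD libraries of 20 and 34 weeks held germ cell RNA, with summed levels of the list of both up to 114820 TPM, 11242 TPM and 4956 TPM in these groups. Because TPM is a share, such RNA lowers every other value in the same library. A ratio of 2 genes within a library is free of that only where such RNA holds neither gene, which was not tested. Macrophage, endothelial and progenitor markers were detected in every group, with 10 of 10, 8 of 8 and 10 of 10 at a median of 1 TPM or more.

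A yardstick for adipocyte RNA was made from 12 other genes, Lipe, Plin4, Aqp7, Adrb3, Mrap, Acvr1c, Slc2a4, Trarg1, Adig, Pck1, Tshr and Gpd1, as the mean of their log2(TPM + 1). They encode lipases and lipolytic receptors, droplet and glycerol proteins, the insulin-responsive glucose transporter and enzymes of glyceroneogenesis. The mean score was lower on HFD, with differences of -0.63 (SE 0.29) at 8 weeks, -0.72 (SE 0.17) at 20 weeks and -2.07 (SE 0.81) at 34 weeks on the log2 scale. It was lower at 20 than at 8 weeks too, with differences of -0.70 (SE 0.27) on CHOW and -0.79 (SE 0.19) on HFD. In a bulk pellet, fewer adipocytes and less RNA per adipocyte cannot be told apart. Of the 12 genes, 4 fell at 20 weeks by limma (Pck1, Adrb3, Adig and Plin4, with log2 differences of -2.23, -1.41, -1.29 and -0.87 and adjusted p of 0.0039, 0.018, 0.039 and 0.041), and the other 8 ranged from -0.63 (Tshr) to -0.03 (Acvr1c). Of all genes tested, 4.99% were called lower at 20 weeks. Whether the 12 genes hold their level within adipocytes on HFD was not tested, since adipocyte libraries were not analysed here.

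Adiponectin was lower on HFD at each time, by about as much as the yardstick at 8 weeks and by somewhat more later. Adipoq stood at 127, 168, 73.5 and 164 TPM in the 4 CHOW 8 week libraries, and on HFD it ranged from 36.1 to 148 TPM with a median of 77.9 TPM. At 20 weeks the CHOW libraries held 73.2, 44.3, 68.7, 67.4 and 102 TPM, and the HFD libraries ranged from 22.2 to 45.1 TPM with a median of 29.9 TPM. Only the highest HFD library of 20 weeks reached above the lowest CHOW library. At 34 weeks CHOW ranged from 35.3 to 5439 TPM (median 273 TPM) and HFD from 27.3 to 88.2 TPM (median 40.7 TPM), with overlap.

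The HFD minus CHOW difference of Adipoq was -0.71 (SE 0.31), -1.16 (SE 0.29) and -2.92 (SE 1.01) on the log2(TPM + 1) scale at 8, 20 and 34 weeks. After the yardstick was subtracted library by library, it was -0.08 (SE 0.20), -0.44 (SE 0.19) and -0.85 (SE 0.33). Without the CHOW 34 week libraries 5, 6 and 7 the 34 week values were -0.99 and, relative to the yardstick, -0.45. Over the other settings run, among them other reference genes, the relative value ran from -0.58 to 0.07 at 8 weeks. It ran from -1.07 to 0 at 20 weeks and from -2.12 to 0 at 34 weeks, where 0 is Adipoq set against itself. At 8 and 20 weeks Adipoq stood closest to the yardstick after Plin1, and it served as a second yardstick in the ratios given below.

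**Figure D1:**
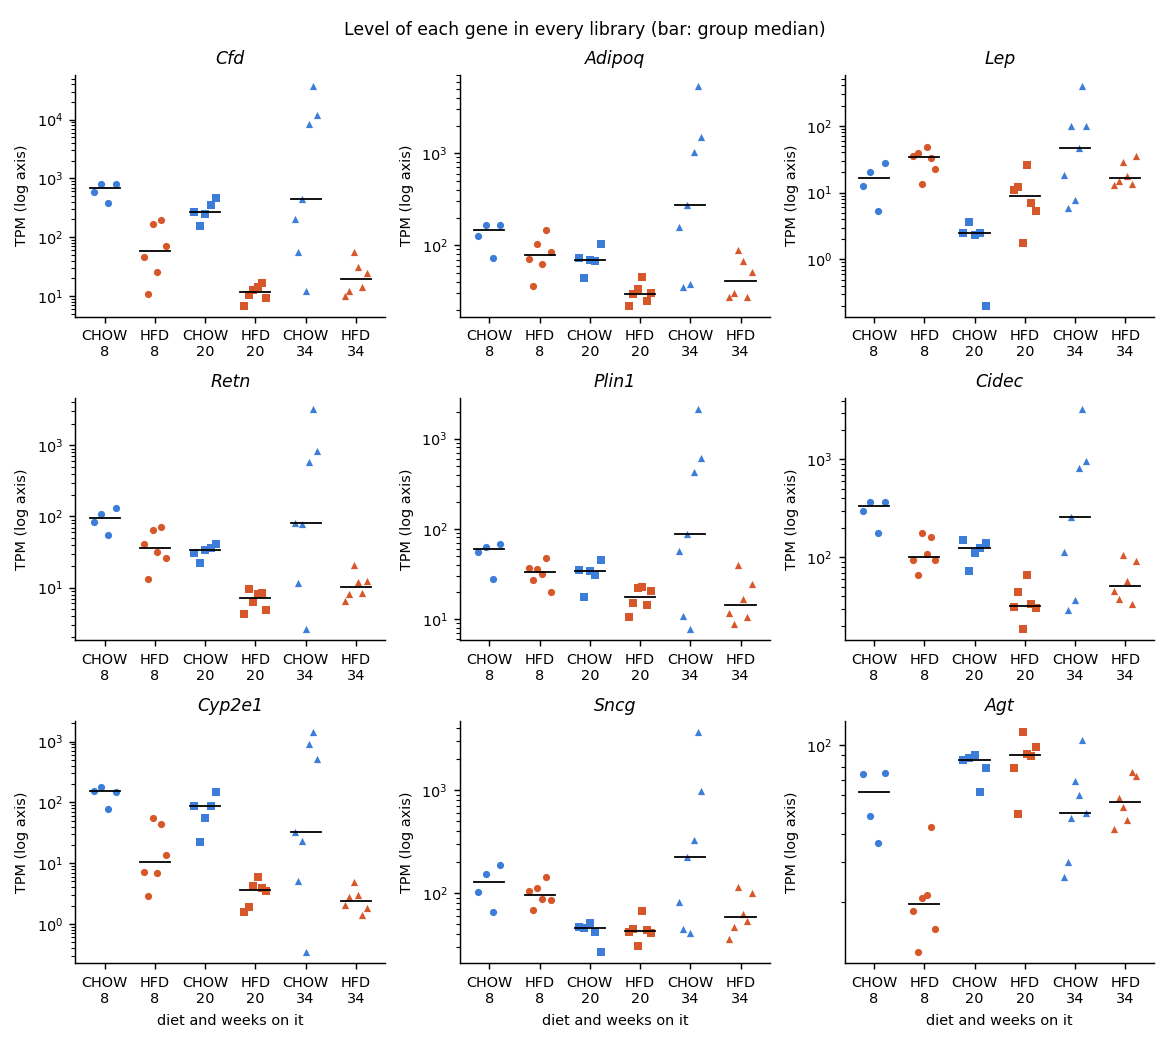
Each panel plots the TPM of 1 gene (log axis) in every library, grouped by diet and weeks on it, with circles for 8, squares for 20 and triangles for 34 weeks, CHOW in blue, HFD in orange and a bar at the group median. Cfd and Cyp2e1 on HFD lie under every CHOW library at 8 and 20 weeks, and 3 CHOW 34 week libraries rise far above all others for 6 of the genes, less clearly for Sncg (327 against 224 TPM in the next library), and not for Lep and Agt.

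Adipsin showed the widest diet difference of the 9 genes at all 3 times. Cfd stood at 587, 801, 375 and 817 TPM in the CHOW 8 week libraries, against 10.9 to 197 TPM on HFD (median 58.4 TPM). At 20 weeks it stood at 268, 157, 250.2, 359 and 472 TPM on CHOW, against 6.87 to 16.8 TPM on HFD (median 11.7 TPM). Every HFD library was under every CHOW library at both times. At 34 weeks CHOW ran from 12.3 to 38039 TPM (median 445 TPM) and HFD from 9.94 to 55.0 TPM (median 19.6 TPM), and the ranges overlapped through CHOW library 4.

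The difference was -3.43 (SE 0.56) at 8 weeks, -4.52 (SE 0.53) at 20 weeks and -5.25 (SE 1.59) at 34 weeks on the log2(TPM + 1) scale, that is 10.8-, 22.9- and 38.0-fold lower. Relative to the yardstick it was -2.80 (SE 0.48), -3.80 (SE 0.45) and -3.17 (SE 0.96). Leaving out any single library moved the relative value only between -3.06 and -2.45 at 8 weeks and between -3.89 and -3.66 at 20 weeks. At 34 weeks the plain value ran from -6.24 to -4.33 with 1 library left out. Without CHOW libraries 5, 6 and 7 it was -2.07, and -1.53 relative to the yardstick.

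The ratio of Cfd to Adipoq within each library does not move with the share taken by RNA that holds neither gene. It too separated the diets at 8 and 20 weeks. It was 4.64, 4.77, 5.09 and 4.97 on CHOW at 8 weeks and 3.65, 3.53, 3.64, 5.32 and 4.61 on CHOW at 20 weeks. On HFD it ranged from 0.301 to 1.64 at 8 weeks and from 0.308 to 0.675 at 20 weeks. The CHOW libraries of 8 weeks thus agreed closely in ratio (mean 4.87, SD 0.20) although their Cfd levels did not (SD 208 TPM around 645 TPM). The HFD libraries of 8 weeks still differed among themselves, with libraries 3 and 5 at 1.64 and 1.33 and library 2 at 0.301.

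The 34 week CHOW libraries fell at separate ratios of Cfd to Adipoq. Libraries 1, 2 and 3 stood at 1.29, 1.57 and 1.63, library 4 at 0.324, and libraries 5, 6 and 7 at 8.09, 6.99 and 7.96. Library 4 lay below the lowest HFD library of that time (0.364 to 0.623), and the other 6 lay above the highest. The libraries with the most adipocyte RNA were the ones with the highest ratio, while in CHOW libraries of 8 and 20 weeks the ratio stayed between 3.53 and 5.32.

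**Figure D2:**
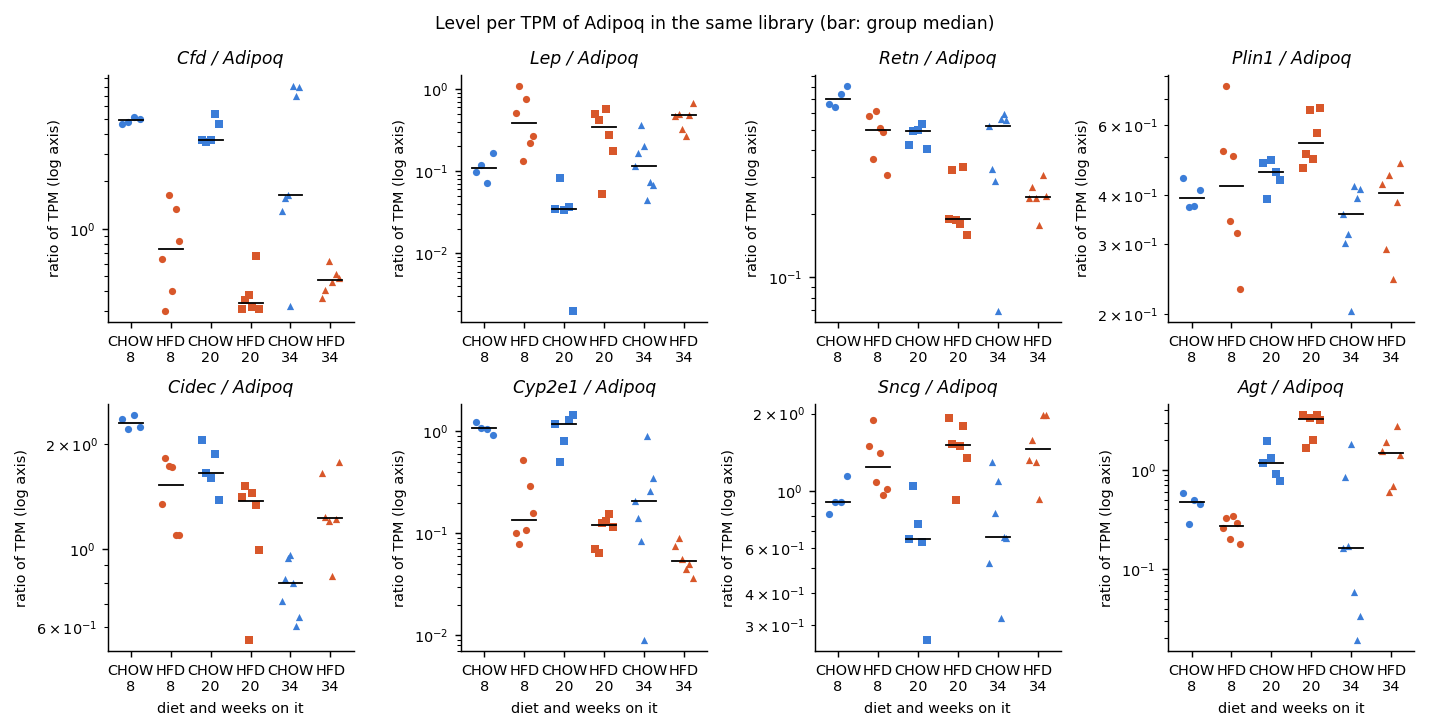
Each panel plots the TPM of 1 gene divided by the TPM of Adipoq in the same library (log axis), by diet and weeks on it, with symbols and colours as in the plot of levels and a bar at the group median. The ratios of Cfd and Cyp2e1 on HFD lie under all CHOW ratios at 8 and 20 weeks, those of Lep lie mostly above, and those of Plin1 stay between 0.203 and 0.756 throughout.

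Cyp2e1 moved almost in step with Cfd. It stood at 154, 181, 77.7 and 149 TPM on CHOW at 8 weeks against 2.85 to 54.5 TPM on HFD (median 10.4 TPM). At 20 weeks it stood at 86.8, 22.1, 54.7, 87.4 and 148 TPM on CHOW against 1.54 to 5.93 TPM on HFD (median 3.65 TPM). As for Cfd, no HFD library reached the lowest CHOW library at either time. At 34 weeks CHOW ran from 0.339 to 1409.8 TPM (median 33.1 TPM) and HFD from 1.38 to 4.91 TPM (median 2.37 TPM), and CHOW library 4 held the lowest value of all 34 libraries.

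The Cyp2e1 difference was -3.24 (SE 0.60), -4.01 (SE 0.57) and -4.20 (SE 1.40), or 9.43-, 16.1- and 18.3-fold lower on the log2(TPM + 1) scale. Relative to the yardstick it was -2.61 (SE 0.51), -3.29 (SE 0.48) and -2.12 (SE 0.79), and at 34 weeks without CHOW libraries 5, 6 and 7 the plain and relative values were -1.36 and -0.82. Its ratio to Adipoq was 0.909 to 1.22 on CHOW and 0.0789 to 0.526 on HFD at 8 weeks, and 0.499 to 1.44 on CHOW and 0.0645 to 0.154 on HFD at 20 weeks. Cyp2e1 is also an abundant liver gene. A list of 10 liver genes summed to at most 29.8 TPM in any library (CHOW 34 week library 6) and to at most 6.82 TPM at 8 and 20 weeks, with Ttr and Cyp3a11 at 0 in all libraries of these 4 groups. The source of Cyp2e1 was not tested.

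Leptin went the other way at 8 and 20 weeks. Lep stood at 12.5, 20.2, 5.25 and 27.3 TPM on CHOW at 8 weeks against 13.6 to 47.6 TPM on HFD (median 34.2 TPM). At 20 weeks it stood at 2.51, 3.61, 2.33, 2.46 and 0.204 TPM on CHOW against 1.78 to 25.5 TPM on HFD (median 8.99 TPM). The diets overlapped at both times, at 20 weeks through HFD library 3 alone. At 34 weeks CHOW ran from 5.82 to 399 TPM (median 46.4 TPM) and HFD from 12.8 to 34.7 TPM (median 16.5 TPM).

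The Lep difference was +1.04 (SE 0.52) at 8 weeks, +1.63 (SE 0.49) at 20 weeks and -1.06 (SE 0.79) at 34 weeks. Relative to the yardstick it was positive at all 3 times, at +1.67 (SE 0.57), +2.35 (SE 0.53) and +1.01 (SE 0.39). At 34 weeks the sign of the plain difference rested on the CHOW libraries with much adipocyte RNA, since it was 0.12 without libraries 5, 6 and 7, and the relative value was then 0.65. With lipid droplet and lipolysis genes as the yardstick in place of the 12, the relative value at 34 weeks was -0.26.

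Per TPM of Adipoq, leptin averaged 0.114 on CHOW and 0.496 on HFD at 8 weeks (4.34-fold), 0.0376 and 0.331 at 20 weeks (8.79-fold) and 0.148 and 0.453 at 34 weeks (3.06-fold). Of 6 HFD libraries, 5 at 8 weeks, 5 at 20 weeks and 4 at 34 weeks lay above every CHOW library of their time. The HFD library that stayed within the CHOW range at 8 weeks was library 3 (0.132), which also had the highest ratio of Cfd on HFD. Library 2, with the lowest Cfd ratio on HFD, had the highest Lep ratio (1.09). Leptin also fell with time within each diet, from 8 to 20 weeks by 2.35 (SE 0.54) on CHOW and 1.75 (SE 0.46) on HFD on the log2 scale, and by 1.64 (SE 0.59) and 0.96 (SE 0.51) relative to the yardstick.

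By subtraction resistin was lower on HFD by more than the yardstick, though by less than Cfd. Retn stood at 83.5, 108, 54.2 and 133 TPM on CHOW at 8 weeks against 13.1 to 71.8 TPM on HFD (median 36.4 TPM), with overlap. At 20 weeks it stood at 30.9, 21.9, 34.3, 35.7 and 41.6 TPM on CHOW against 4.20 to 9.44 TPM on HFD (median 7.19 TPM), with none. At 34 weeks CHOW ran from 2.62 to 3241 TPM (median 82.2 TPM) and HFD from 6.47 to 20.9 TPM (median 10.2 TPM). The differences of -1.30 (SE 0.35), -2.12 (SE 0.33) and -3.42 (SE 1.27) became -0.67 (SE 0.25), -1.40 (SE 0.23) and -1.35 (SE 0.61) relative to the yardstick. Without CHOW 34 week libraries 5, 6 and 7 the last plain and relative values were -1.01 and -0.47. With the yardstick as a covariate the 3 differences were -0.48 (SE 0.28), -1.18 (SE 0.28) and -0.06 (SE 0.32). Among CHOW 34 week libraries the relative value was -0.55 in library 4, with the lowest score, and 3.69 in library 6, with the highest. Subtraction thus did not take out all that moved with the score there. In its ratio to Adipoq every HFD library lay under every CHOW library at 8 weeks (means 0.476 and 0.712) and at 20 weeks (0.228 and 0.470).

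Plin1 followed the yardstick most closely of the 9 at 8 and 20 weeks. It ranged from 27.5 to 67.5 TPM on CHOW and 19.7 to 47.2 TPM on HFD at 8 weeks, and from 17.3 to 44.7 TPM and 10.4 to 22.3 TPM at 20 weeks. At 34 weeks the ranges were 7.71 to 2136 TPM and 8.80 to 39.8 TPM. The diet difference of -0.65 (SE 0.28), -0.85 (SE 0.26) and -2.76 (SE 1.11) shrank to -0.02 (SE 0.20), -0.13 (SE 0.19) and -0.68 (SE 0.41) relative to it. Without CHOW 34 week libraries 5, 6 and 7 the last values were -0.64 plain and -0.10 relative. Over the other settings run, among them other reference genes, the relative value ran from -0.52 to 0.13 at 8 weeks. It ran from -0.75 to 0.32 at 20 weeks and from -1.96 to 0.16 at 34 weeks, so how closely Plin1 followed depended on the yardstick. Per TPM of Adipoq, perilipin 1 averaged 0.400 on CHOW and 0.445 on HFD at 8 weeks, 0.452 and 0.561 at 20 weeks, and 0.344 and 0.380 at 34 weeks, and the diets overlapped at each time.

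Cidec promotes fusion of lipid droplets into a large one. Relative to the yardstick it lay close to Retn at 8 weeks and between Retn and Plin1 at 20 weeks. At 34 weeks it lay nearer 0 than either over all libraries, but Plin1 was nearer without CHOW libraries 5, 6 and 7. It ranged from 178 to 370.5 TPM on CHOW and 65.9 to 179 TPM on HFD at 8 weeks, where 1 HFD library passed the lowest CHOW library. At 20 weeks it ranged from 73.2 to 149.7 TPM on CHOW and 18.5 to 65.5 TPM on HFD with no overlap, and at 34 weeks from 29.0 to 3279.8 TPM and 33.7 to 106 TPM. The differences of -1.38 (SE 0.31), -1.72 (SE 0.29) and -2.20 (SE 0.94) became -0.75 (SE 0.21), -1.003 (SE 0.20) and -0.12 (SE 0.25) relative to the yardstick. Without CHOW 34 week libraries 5, 6 and 7 the last values were -0.41 plain and 0.13 relative. Per TPM of Adipoq the direction turned between the times, with 2.30 on CHOW and 1.47 on HFD at 8 weeks, 1.71 and 1.21 at 20 weeks, and 0.784 and 1.32 at 34 weeks.

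Gamma-synuclein differed little by diet at 8 and 20 weeks. Sncg ranged from 66.3 to 188 TPM on CHOW and 68.3 to 142 TPM on HFD at 8 weeks, from 26.8 to 51.2 TPM and 30.9 to 67.7 TPM at 20 weeks, and from 41.3 to 3589 TPM and 36.1 to 114 TPM at 34 weeks. Its differences were -0.27 (SE 0.26), +0.07 (SE 0.24) and -1.87 (SE 0.88), which became +0.36 (SE 0.22), +0.79 (SE 0.20) and +0.20 (SE 0.29) relative to the yardstick. Without CHOW 34 week libraries 5, 6 and 7 the last values were -0.27 plain and 0.27 relative. Per TPM of Adipoq it averaged 0.941 on CHOW and 1.31 on HFD at 8 weeks, 0.667 and 1.5003 at 20 weeks, and 0.766 and 1.51 at 34 weeks. At 20 weeks 5 of 6 HFD libraries lay above all CHOW libraries in this ratio. In time it fell by 1.47 (SE 0.27) on CHOW and 1.13 (SE 0.23) on HFD on the log2 scale.

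Angiotensinogen did not follow adipocyte RNA. Agt stood at 74.5, 48.4, 36.6 and 74.5 TPM on CHOW at 8 weeks against 11.9 to 43.2 TPM on HFD (median 19.5 TPM), where only HFD library 5 reached the CHOW range. At 20 weeks it stood at 85.6, 87.7, 90.5, 61.6 and 79.2 TPM on CHOW against 49.3 to 113 TPM on HFD (median 90.1 TPM), with full overlap. At 34 weeks CHOW ran from 25.8 to 105 TPM (median 49.9 TPM) and HFD from 42.1 to 75.6 TPM (median 55.5 TPM). In CHOW 34 week libraries 5, 6 and 7, where Adipoq was highest, Agt was at 59.9, 105 and 49.9 TPM.

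The Agt difference by diet was -1.44 (SE 0.28) at 8 weeks, +0.07 (SE 0.26) at 20 weeks and +0.17 (SE 0.28) at 34 weeks. Relative to the yardstick it was -0.81 (SE 0.24), +0.79 (SE 0.23) and +2.24 (SE 0.76), the last being 1.03 without CHOW 34 week libraries 5, 6 and 7. With the yardstick as a covariate the difference was -0.94 (SE 0.28), +0.63 (SE 0.28) and +0.56 (SE 0.30). Since Agt did not follow the yardstick, its relative values mostly carry the yardstick's own fall at 20 and 34 weeks and are not a rise of Agt on HFD. From 8 to 20 weeks Agt rose on HFD by 2.01 (SE 0.25) on the log2 scale, or 4.04-fold, while the other 8 genes fell by 0.88 (Plin1) to 2.27 (Retn). Every HFD 20 week library lay above every HFD 8 week library in Agt, and the share of all genes so separated was not counted. On CHOW the same step was +0.51 (SE 0.29), and the diet by time difference was +1.505 (SE 0.38). Agt is also transcribed by fibroblast-like cells of fat, and the 10 progenitor and fibroblast markers summed to medians of 7116 TPM on HFD at 8 weeks and 7745 TPM at 20 weeks. The source of Agt among the cells of the pellet was not tested.

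**Figure D3:**
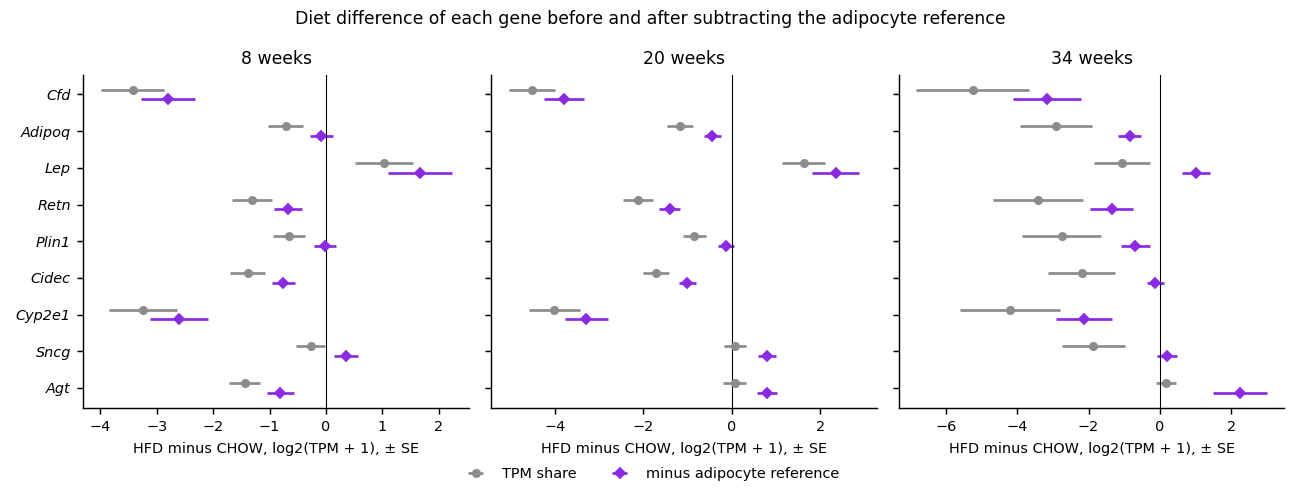
The 3 panels plot the HFD minus CHOW difference of each gene in log2(TPM + 1) at 8, 20 and 34 weeks with its standard error, as the TPM share (grey circles) and after the mean of 12 adipocyte reference genes was subtracted in each library (purple diamonds). Cfd and Cyp2e1 stay between -3.80 and -2.12 after the subtraction, Plin1 comes to -0.02 and -0.13 at 8 and 20 weeks, and Lep lies above 0 at each time.

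The order at 20 weeks relative to the yardstick ran from Cfd (-3.80) and Cyp2e1 (-3.29) over Retn (-1.40), Cidec (-1.003), Adipoq (-0.44) and Plin1 (-0.13) to Agt (+0.79), Sncg (+0.79) and Lep (+2.35). At 8 weeks the order was Cfd (-2.80), Cyp2e1 (-2.61), Agt (-0.81), Cidec (-0.75), Retn (-0.67), Adipoq (-0.08), Plin1 (-0.02), Sncg (+0.36) and Lep (+1.67), so Agt was the gene that changed place most. These comparisons share no libraries between the times. Where the yardstick entered the fit as a covariate instead of being subtracted, the 20 week differences were -3.14 (SE 0.49) for Cfd, -2.42 (SE 0.49) for Cyp2e1, -1.18 (SE 0.28) for Retn, -0.89 (SE 0.25) for Cidec, -0.32 (SE 0.24) for Adipoq, -0.14 (SE 0.24) for Plin1 and +1.98 (SE 0.63) for Lep. For Sncg and Agt the 20 week differences were then +0.64 (SE 0.25) and +0.63 (SE 0.28). At 34 weeks the covariate left -1.02 (SE 0.34) for Cfd, -0.54 (SE 0.48) for Cyp2e1, -0.06 (SE 0.32) for Retn and +0.56 (SE 0.30) for Agt, less than subtraction did.

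Counts of calls are set beside the background of all genes tested by limma, and nothing is read from them, since the same differences chose the genes. The members called at 8 weeks ran from 0 to 4 with 1 library left out (4 without CHOW library 3) and from 0 to 5 over the other settings, and those called on CHOW over time from 0 to 4 and from 0 to 6. At 8 weeks 1 of 9 members was called lower (Cfd) and 0 higher, where 0.0238% of the 16808 genes tested were called lower and 0% higher. At 20 weeks 6 were called lower (Cfd, Adipoq, Retn, Plin1, Cidec and Cyp2e1) and 1 higher (Lep), against 4.99% and 9.32% of all genes. At 34 weeks 0 of 9 were called by limma, 6 had an unadjusted p under 0.05, and 0% of 13982 genes were called lower and 0.243% higher. Every HFD library lay under every CHOW library for 2 members at 8 weeks (Cfd and Cyp2e1; 1.77% of all genes), for 4 at 20 weeks (Cfd, Retn, Cidec and Cyp2e1; 3.69%) and for 0 at 34 weeks (0.2%).

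Between 8 and 20 weeks on CHOW, 2 members were called lower (Lep and Sncg), where 0.155% of all genes were called lower and 0.458% higher. On HFD 8 were called lower and 1 higher (Agt), where 2.65% were called lower and 6.12% higher. In the diet by time comparison 0 members were called by limma and 1 (Agt) had an unadjusted p under 0.05, where 0.161% of all genes were called higher and 0.137% lower.

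**Figure D4:**
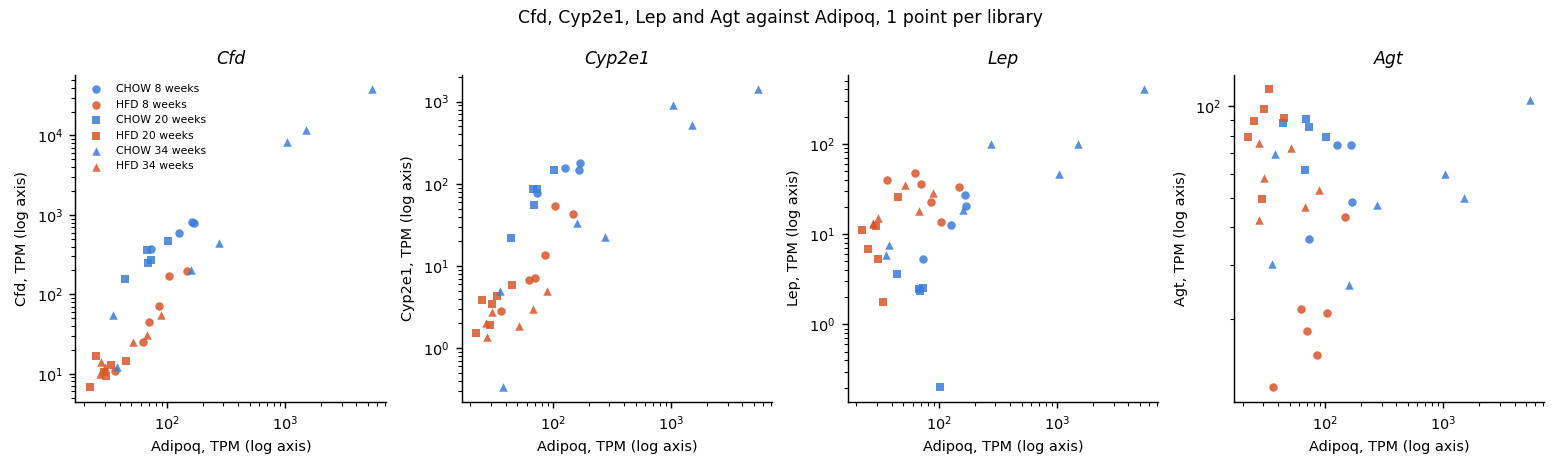
The 4 panels plot the TPM of Cfd, Cyp2e1, Lep and Agt against the TPM of Adipoq, both on log axes, with 1 point per library, circles, squares and triangles for 8, 20 and 34 weeks, CHOW in blue and HFD in orange. CHOW libraries of 8 and 20 weeks lie at Cfd ratios of 3.53 to 5.32 and HFD libraries at or under 1.64, and Agt stays between 11.9 and 113 TPM while Adipoq runs from 22.2 to 5439 TPM.

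How constant a ratio stayed from library to library was measured with a proportionality coefficient on log2(TPM + 1) (1 minus the variance of the difference over the sum of the variances), which is 1 for genes whose difference never varies. It is a description over libraries that share a tissue and its mix of cells, over 21 libraries at 8 and 20 weeks and 13 at 34 weeks. With the yardstick it was 0.90 for Plin1, 0.87 for Adipoq, 0.76 for Cidec, 0.71 for Sncg and 0.67 for Retn at 8 and 20 weeks. It was lower for Cyp2e1 (0.43), Cfd (0.40), Lep (0.15) and Agt (-0.12). At 34 weeks, where the amount of adipocyte RNA varied most, it was 0.74 to 0.98 for all but Agt (0.17).

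The search for like genes at 8 and 20 weeks covered only tested genes above a floor on mean TPM, not all genes. This limit holds for every gene named here and below as most like a member. Among the genes searched, the one most like Cfd was Cyp2e1 (0.98, and 0.97 at 34 weeks). Pck1, the gluconeogenic and glyceroneogenic enzyme, came next (0.86). Pck1 was also second for Cyp2e1 (0.90). The genes most like Adipoq were Rbp4, a retinol carrier secreted by fat (0.98), and Plin4, a droplet protein (0.96). Retn was most like Cidec (0.94) and Car3, an adipocyte carbonic anhydrase (0.94), Cidec was most like Thrsp, a lipogenic regulator (0.95), and then Retn, and Plin1 was most like Pcx, pyruvate carboxylase (0.89), and Adipoq (0.89).

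Lep was most like Ccn2, a matricellular growth factor gene (0.86), and the apelin receptor Aplnr (0.81) at 8 and 20 weeks, but the coefficients were -0.47 and -0.28 at 34 weeks. Sncg was most like Hr (0.90, and 0.70 at 34 weeks) and Trarg1 (0.87 and 0.96), a regulator of glucose transporter traffic that is also 1 of the 12 yardstick genes. Agt was most like C7, a terminal complement component (0.96), and Hpca (0.91), with 0.13 and 0.01 at 34 weeks. The median of C7 was 344 TPM on CHOW against 91.2 TPM on HFD at 8 weeks, and 421 against 397 TPM at 20 weeks, the same order of groups as Agt at 8 weeks. At 34 weeks neither Lep nor Agt ran with these genes.

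**Figure D5:**
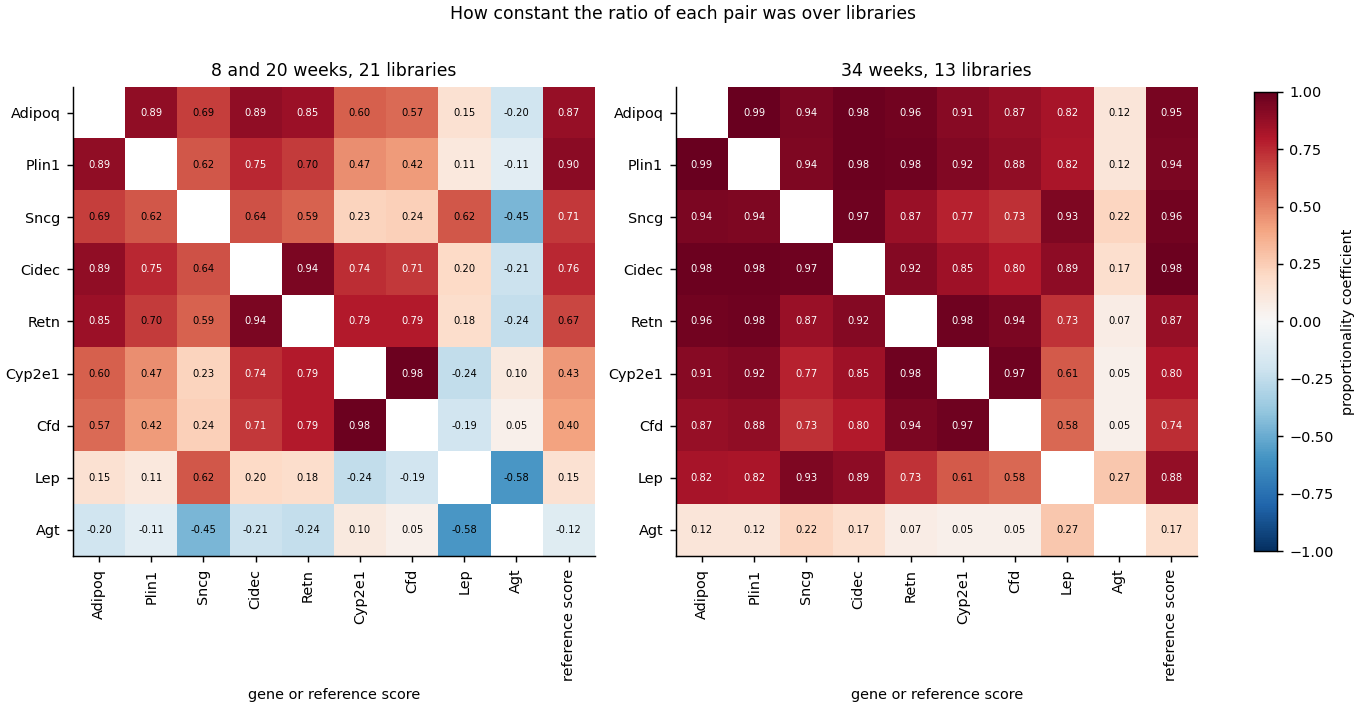
The 2 panels show the proportionality coefficient of each pair of genes, and of each gene with the adipocyte reference score, over the 21 libraries of 8 and 20 weeks (left) and the 13 of 34 weeks (right), from -1 (blue) to 1 (red). Adipoq, Plin1, Cidec and Retn form the red block at left, Cfd and Cyp2e1 pair at 0.98, and Agt stays apart in both panels.

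Ordered by group median, the highest level of Cfd, Retn, Cidec and Cyp2e1 was in CHOW at 8 weeks and that of Adipoq, Lep, Plin1 and Sncg in CHOW at 34 weeks, while Agt was highest on HFD at 20 weeks. HFD at 20 weeks had the lowest median of Cfd, Adipoq, Retn, Cidec and Sncg, HFD at 34 weeks that of Plin1 and Cyp2e1, CHOW at 20 weeks that of Lep and HFD at 8 weeks that of Agt. The ranges of neighbouring groups in these orders overlapped for every gene, except that of Retn in CHOW at 20 weeks (21.9 to 41.6 TPM) and HFD at 34 weeks (6.47 to 20.9 TPM).

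Other adipocyte genes were taken from 4 lists of 51 genes in all (the 12 of the yardstick, lipid droplet and lipolysis, lipogenesis and triglyceride synthesis, and adipogenic factors), none of them members. These lists and those below were chosen with earlier results of these data known, so their calls give the members no independent support. At 8 weeks 0 of 49 tested were called by limma and 12 had an unadjusted p under 0.05, with a median difference of -0.27 against -0.08 over all genes tested. At 20 weeks 4 rose and 8 fell of 49 (median -0.17 against 0.08 over all genes), where 9.32% of all genes were called higher and 4.99% lower. The rises were near that share and are not read as a result about these genes. At 34 weeks 0 of 48 were called by limma and 22 had an unadjusted p under 0.05 (median -0.95 against 0.10). The medians over members were -1.30, -1.16 and -2.76 at these times, a description of genes chosen for such values.

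At 20 weeks the adipocyte genes that rose by limma with the largest differences were Hilpda, a hypoxia-inducible droplet protein (1.12, SE 0.26, adjusted p = 0.0081), Nr1h3, the sterol sensor LXR alpha (1.01, SE 0.23, adjusted p = 0.0070), and Lpin1, a phosphatidate phosphatase (0.86, SE 0.26, adjusted p = 0.030). Nr1h3 and Hilpda are also macrophage genes. Of 10 macrophage markers 5 rose at that time, where 9.32% of all genes were called higher. The part of macrophages in these rises was not tested. Those that fell most were Pck1 (-2.23, SE 0.47, adjusted p = 0.0039), Thrsp (-1.46, SE 0.30, adjusted p = 0.0033) and Adrb3, the lipolytic beta-3 receptor (-1.41, SE 0.38, adjusted p = 0.018). On CHOW from 8 to 20 weeks 1 of 49 fell by limma (Agpat2, a triglyceride synthesis enzyme, -0.93, SE 0.21, adjusted p = 0.046), where 0.155% of all genes were called lower.

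On HFD from 8 to 20 weeks 3 of the 49 rose and 10 fell by limma, where 6.12% of all genes were called higher and 2.65% lower. The rises were near that share and are not read as a result about these genes. Hilpda (1.24, SE 0.25, adjusted p = 0.0033), Mlxipl, the carbohydrate-responsive factor ChREBP (1.00, SE 0.22, adjusted p = 0.0056), and Nr1h3 (0.88, SE 0.22, adjusted p = 0.017) rose. Thrsp (-1.68, SE 0.29, adjusted p = 0.00080), Scd1, a fatty acid desaturase (-1.64, SE 0.29, adjusted p = 0.0010), and Pck1 (-1.57, SE 0.45, adjusted p = 0.033) fell most. In the diet by time comparison 0 of 49 were called by limma, with 7 at an unadjusted p under 0.05. The medians were -0.36 on CHOW and -0.43 on HFD between the times and 0.05 for the interaction, against -0.09, 0.09 and 0.18 over all genes.

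Of 22 other adipokines and secreted factors, 20 were tested at 8 and 20 weeks and 19 at 34 weeks. By limma 0 were called at 8 weeks (7 with an unadjusted p under 0.05) and 0 at 34 weeks (6). At 20 weeks 3 rose, Igf1 (1.08, SE 0.22, adjusted p = 0.0026), C1qtnf6 (0.96, SE 0.31, adjusted p = 0.044) and C1qtnf12 (0.42, SE 0.13, adjusted p = 0.036). The 4 that fell were led by Lcn2, lipocalin 2 (-2.39, SE 0.54, adjusted p = 0.0065), Hp, haptoglobin (-1.82, SE 0.31, adjusted p = 0.00071), and Rbp4 (-1.19, SE 0.25, adjusted p = 0.0036). Of all genes, 9.32% were called higher and 4.99% lower at 20 weeks. Lcn2 and Hp are also neutrophil genes, and the 8 neutrophil markers summed to 103 to 1352 TPM on CHOW and 31.2 to 472 TPM on HFD at that time. Their part in the difference was not tested.

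Between 8 and 20 weeks on CHOW 1 of these 20 fell by limma, Nrg4 (-1.18, SE 0.27, adjusted p = 0.045). On HFD 2 rose, Igf1 (0.94, SE 0.21, adjusted p = 0.0065) and Metrnl (0.63, SE 0.17, adjusted p = 0.024), and 4 fell, led by Orm1, an acute-phase protein (-1.65, SE 0.31, adjusted p = 0.0021), Rbp4 (-1.30, SE 0.24, adjusted p = 0.0015) and Apln, apelin (-1.23, SE 0.36, adjusted p = 0.038). In the diet by time comparison 0 were called by limma and 2 had an unadjusted p under 0.05. Of all genes, 0.155% were called lower over time on CHOW. On HFD over time 6.12% were called higher and 2.65% lower.

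Of 23 receptors, partners and relatives of the 9 genes, 18 were tested at 8 and 20 weeks and 17 at 34 weeks. By limma 0 were called at 8 weeks (5 with an unadjusted p under 0.05) and 0 at 34 weeks (2). At 20 weeks 3 rose, the droplet proteins Plin2 (0.83, SE 0.22, adjusted p = 0.020) and Plin3 (0.56, SE 0.16, adjusted p = 0.025) and the adiponectin receptor Adipor1 (0.43, SE 0.13, adjusted p = 0.031). Plin2, which many cell types use, thus rose while Plin1 was lower. Of the 5 that fell, the lowest were the resistin relatives Retnlg (-3.62, SE 0.60, adjusted p = 0.00055) and Retnla (-2.62, SE 0.38, adjusted p = 0.00017) and Cfb, the factor B that adipsin cleaves (-1.83, SE 0.28, adjusted p = 0.00026). The source of Retnlg, Retnla and Cfb among the cells of the pellet was not tested. Of all genes, 9.32% were called higher and 4.99% lower at 20 weeks.

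From 8 to 20 weeks on CHOW 0 of these 18 were called by limma (3 with an unadjusted p under 0.05). On HFD 3 rose, Plin2 (0.78, SE 0.21, adjusted p = 0.027), the anaphylatoxin receptor C3ar1 (0.75, SE 0.19, adjusted p = 0.018) and Ace, the enzyme that makes angiotensin II (0.62, SE 0.16, adjusted p = 0.022). Retnla fell on HFD (-3.48, SE 0.36, adjusted p = 7.7e-06). Of all genes, 6.12% were called higher and 2.65% lower on HFD over time. The diet by time comparison called 1, Retnla (-3.03, SE 0.55, adjusted p = 0.018), by limma, where 0.137% of all genes were called lower.

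Marker lists of other cells moved between the same groups. At 20 weeks on HFD 10 of 10 mesothelial and 5 of 5 erythroid markers fell and 7 of 8 mast cell markers rose by limma. Of all genes, 4.99% were called lower and 9.32% higher. The mesothelial list summed to 204 to 832 TPM on CHOW and 53.8 to 197 TPM on HFD, the erythroid list to 27334 to 130027 TPM and 12622 to 30448 TPM, and the mast cell list to 525 to 784 TPM and 624 to 2882 TPM. No marker of these lists was at 0 in every library of these groups. The part of these cells in the differences of the 9 genes, plain or as a ratio to Adipoq, was not tested.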

How the data were processed

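RNA-seq of the SVF was available for 34 libraries. Per the labels and the study's methods, the authors used FastQC, MultiQC and Trimmomatic on the reads, ran Salmon against gencode M10 (mm10) and summed transcripts to genes (for tool versions: not given in the sources used here). What was deposited is TPM, summing to 1000000 per library in a table of 21 and a table of 13 libraries. The authors' DESeq2 test on counts was not possible with TPM. Symbols and positions came from gencode M21 (31791 of 32098 IDs matched without version, 24748 with it). TPM was taken as log2(TPM + 1), a scale on which low genes appear to change less than they do. A gene was tested where 4 libraries (34 weeks: 6) reached 1 TPM, using limma 3.58.1 in R 4.3.3 with 1 mean per group, a mean-variance trend, two-sided tests, Benjamini-Hochberg adjustment and a threshold of 0.05. The 34 week table was fitted alone. The fit was tested on simulated data. Relative values subtract the mean log2(TPM + 1) of 12 adipocyte genes. The members and lists were chosen with earlier results of these data known. Named genes are the members, the 12 reference genes, the 2 genes most like each member and, per comparison, up to 3 called genes in each direction from the adipocyte lists, other adipokines, and receptors and partners. The result of another gene under this rule is not reported here. Mesothelial, erythroid, mast cell, macrophage, neutrophil and liver markers were named after their values were seen. Alternatives covered pseudocount, filter, scaling, weights, covariate, replicate block, the groups fitted, the reference genes and each library left out.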

Additional observations from a re-analysis of the deposited data

Results flagged for a closer look

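CHOW 20 week library 5 lay far from the other 4 libraries of its group in 2 genes, by the gap to its nearest neighbour over the range of the group (Dixon's test at the 95% level). Lep was at 0.204 TPM there, against 2.33 to 3.61 TPM in the others. Sncg was at 26.8 TPM, against 42.6 to 51.2 TPM. The same library had the highest Cfd, Adipoq, Retn, Plin1 and Cyp2e1 of its group. These were 2 of 54 groups of values checked, and chance gives about 1 in 20. Without this library the Lep difference between HFD and CHOW at 20 weeks kept its direction, as the range over all single libraries left out (1.31 to 1.97) shows.

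Retnla, a relative of resistin, differed between the times in its diet effect, with a diet by time difference of -3.03 (SE 0.55, adjusted p = 0.018 by limma).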

How the results depend on the processing

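The 4 adipocyte lists were counted under each alternative. From 8 to 20 weeks on CHOW the count of 1 became 0 without a filter, 2 with median-ratio scaling, 2 with quantile normalization, 17 with sample weights, 0 with the adipocyte score as a covariate, 2 with a replicate block and 2 with only the compared groups in the fit, and it ran from 0 to 7 when each of the 9 libraries was left out in turn (7 without CHOW 8 week library 3, 0 or 2 without any other). On HFD the count of 13 became 25 with quantile normalization, 23 with weights and 0 with the covariate, and ran from 9 to 14 with 1 library left out. At 20 weeks the count of 12 became 21 with weights and 0 with the covariate, and ran from 6 (without CHOW 20 week library 5) to 15. At 8 weeks the count of 0 became 6 with weights, and ran from 0 to 2 (without CHOW 8 week library 3). At 34 weeks and for the interaction it stayed at 0 in all fits run. The covariate is built from 12 of the 51 genes, and the other causes were not tested. The other 34 counts stayed within 1.5 times. Quantile normalization moved the median of all genes from 0.08 to -0.06 at 20 weeks, from 0.09 to -0.08 for HFD over time, from 0.10 to -0.04 at 34 weeks and from 0.18 to -0.03 for the interaction (median-ratio scaling: -0.0022 at 34 weeks and 0.03 for the interaction). It turned the split of all calls from 1566 higher of 2405 to 1610 of 3512 at 20 weeks, and from 1029 of 1475 to 1118 of 2745 for HFD over time (lists: 3 rose and 10 fell, then 3 and 22).

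Over the alternatives 49 member values had another sign than reported, 6 of them where the reported value was over 2 SE from 0. Of these 6, with the covariate Adipoq at 8 weeks became 0.035, Plin1 over time on CHOW 0.0038, and Plin1, Cidec and Sncg at 34 weeks 0.21, 0.32 and 0.42, and Lep relative to lipid droplet genes at 34 weeks became -0.26. Of the other 43, the covariate took Lep at 34 weeks to 0.87, Cfd and Cyp2e1 over time on CHOW to 0.22 and 0.56, and Sncg at 8 weeks to 0.23, and leaving out CHOW 34 week libraries 5, 6 and 7 took Lep to 0.12. Members called at 20 weeks (7) ran from 5 to 7 with 1 library left out and were 3 with the covariate, those on HFD over time (9) ran from 7 to 9 and were 2 with it, and at 34 weeks there were 0 in all fits run. The Sncg and Agt differences at 20 weeks, both 0.07, ran from -0.09 and -0.03 to 0.64 and 0.63. The diet differences of Cfd, Cyp2e1 and Lep at 8 and 20 weeks kept their direction in all alternatives run. The alternatives chosen after seeing the data were Adipoq alone as reference and the relative values without CHOW 34 week libraries 5, 6 and 7.

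Libraries were fitted as unpaired. Of 15 CHOW and HFD pairs of the same replicate number, 6 had a correlation of deviations over 0.1 (range -0.10 to 0.21). In 6 pairs the CHOW library correlated best with the HFD library of its own number, so some pairing is not excluded. With a replicate block the counts were 0 at 8 weeks, 13 at 20 weeks and 14 for HFD over time. TPM keeps no depth, so low values such as Lep on CHOW at 20 weeks carry an unknown counting error.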
